A study of Mus musculus with 14 samples.

Results

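The genomic windows around Pou5f1 and Sox2, with the distal enhancer regions of both genes, were followed in mouse embryonic stem cells (ESCs) and in differentiated cells derived from them. The windows were 30 kb of chromosome 17 (chr17:35625001-35655000, Pou5f1) and 150 kb of chromosome 3 (chr3:34530001-34680000, Sox2), in the mm9 build. Members were all 200-bp bins inside them and all peaks that overlap them, with each peak kept whole. Of the 7282466 bins listed in any of the 8 libraries, 747 lay in the windows, 128 of the 150 possible bins at Pou5f1 and 619 of the 750 possible bins at Sox2. The bins of chromosome 1 reached position 197093801 or beyond in every library, past the end of that chromosome in later builds.

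All cells were of the R1 mouse ESC line, so each state stood for 1 line. ESCs had been grown for 2 days without the 2i inhibitors of MEK and GSK3. RA-differentiated cells (RA) had received 1 µM retinoic acid for 4 days in serum medium without LIF, and XEN cells, differentiated directly towards extraembryonic endoderm, 0.1 µM retinoic acid with 10 ng/mL Activin A for 9 days. Chromatin was cut with MNase, precipitated with an antibody to H3K4me1 or to H3K27ac, and the DNA was bisulfite-sequenced. Each value is thus the 5-methylcytosine (5mC) level of CpGs on precipitated DNA. Values over whole windows or parts of them pool counts in and out of peaks, so they can include DNA that did not carry the mark. The data hold 1 file per mark in ESCs and in RA. The study mentions repeated experiments, and whether a file pools them is not known, so each is treated as 1 library, where a difference between cell states and a difference between libraries cannot be told apart, and 2 replicate libraries per mark in XEN cells. Nothing in the labels placed the XEN replicates in separate cultures, so their spread may be technical.

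Pou5f1 (Oct4) and Sox2 encode the transcription factors at the centre of the pluripotency network, and they bind DNA together at octamer and Sox motifs in many ESC enhancers, those of their own genes included. Histone H3 carries monomethylation of lysine 4 (H3K4me1) at enhancers in general, and gains acetylation of lysine 27 (H3K27ac) where an enhancer or promoter is in use. Active promoters and enhancers are usually low in 5mC, and methylation of the Pou5f1 regulatory region is a known feature of the silencing of this gene in differentiated cells. Sox2 differs in that it is also used in neural progenitors and other lineages, through other enhancers than the distal one used in ESCs.

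No gene annotation of mm9 was used, so no bin is assigned here to a promoter, exon or intron. In RefSeq's annotation of the later GRCm38.p6 build both genes lie on the plus strand, so a higher coordinate is further downstream. Sox2 lies inside the long non-coding RNA gene Sox2ot, and Pou5f1 lies between H2-Q10 and Tcf19. RefSeq also lists 7 Pou5f1 pseudogenes, and reads that a near-identical copy could share were not separable in bins.

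The RefSeq promoters of the 2 genes (GRCm38.p6, plus strand, 250 bases before to 50 after the start) are shown because 5mC was measured at CpGs, which are in capitals, and the genes differ widely in them. The coordinates are of that build and do not apply to the mm9 bins.
Pou5f1, upstream start (chr17:35505782-35506081): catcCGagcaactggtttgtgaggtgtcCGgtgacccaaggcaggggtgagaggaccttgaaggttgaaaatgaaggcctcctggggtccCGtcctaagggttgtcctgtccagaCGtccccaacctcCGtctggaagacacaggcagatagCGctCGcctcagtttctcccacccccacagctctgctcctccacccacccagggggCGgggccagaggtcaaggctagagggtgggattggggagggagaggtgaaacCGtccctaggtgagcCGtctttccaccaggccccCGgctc
Sox2 (chr3:34649745-34650044): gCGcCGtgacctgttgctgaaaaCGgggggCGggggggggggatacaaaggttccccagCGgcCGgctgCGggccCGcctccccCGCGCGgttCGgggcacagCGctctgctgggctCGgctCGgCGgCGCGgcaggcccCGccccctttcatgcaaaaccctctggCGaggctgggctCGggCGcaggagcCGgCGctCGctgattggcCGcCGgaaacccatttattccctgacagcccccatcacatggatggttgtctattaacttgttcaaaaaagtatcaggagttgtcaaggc
The Sox2 promoter held 27 CpGs, an observed-over-expected ratio of 0.82, and 84.4% of the 32534 RefSeq promoters held fewer. The upstream Pou5f1 promoter held 11 CpGs, a ratio of 0.37, and 58.3% held fewer. A second Pou5f1 start, further downstream, held 6 CpGs, against a median of 7 over all promoters.

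Motif letters were searched on both strands. The letters AGGTCA, a core element of nuclear hormone receptor sites, began at base 218 of the upstream Pou5f1 promoter, and on the minus strand at base 7 of the Sox2 promoter, and were present in 16.3% of all promoters. The GC box GGGCGG began at base 206 of the upstream Pou5f1 promoter, and at bases 28 (plus strand) and 140 (minus strand) of the Sox2 promoter, and was present in 35.9%. The octamer letters ATGCAAA began at base 152 of the Sox2 promoter and were present in 4.65% of all promoters. The Sox letters ACAATG occurred only in the downstream Pou5f1 promoter, at base 93, and in 12.4% of all promoters. These matches describe the sequence, and no binding was measured.

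Libraries held between 12147115 and 58803653 CpG counts, where each CpG read as methylated or unmethylated counts as 1. CpGs on the same read and PCR copies are not independent, so the exact 95% intervals given in brackets cover counting error only. Over whole libraries 5mC was 33.0% in ESCs and 38.7% in RA for H3K27ac, and 38.6% and 54.8% for H3K4me1. In the XEN data, file names swap H3K4me1 and H3K27ac relative to the sample labels. The libraries are called here by their labels. The 2 libraries labelled H3K27ac were the more methylated over all bins, at 61.5% each, against 47.9% and 49.2% in those labelled H3K4me1. Bins under 4 counts are missing from the XEN data, which were made from paired-end reads with Bowtie2 among the tools, so levels across XEN and the other states are set side by side without a test.

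In ESCs both windows were largely covered by peaks and low in 5mC. H3K27ac peaks covered 98.5% of the Pou5f1 window and 70.8% of the Sox2 window, and H3K4me1 peaks 91.6% and 88.5%. Over the Pou5f1 window 5mC was 5.45% on H3K27ac (4.75 to 6.21, 3855 CpG counts) and 12.6% on H3K4me1 (11.5 to 13.8, 3429 counts). Over the Sox2 window it was 9.47% on H3K27ac (9.03 to 9.92, 16906 counts) and 24.9% on H3K4me1 (24.3 to 25.4, 24473 counts). All 4 values lay below the level of the library they came from.

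The highest H3K27ac peak at Pou5f1 in ESCs was at chr17:35631500-35658763, which reaches past the window's end, with a HOMER score of 991.6, rank 238 of 100469. The highest H3K4me1 peak there, chr17:35620565-35642737, ranked 1360 of 145840 with a score of 540.8. Sox2 had a pair of H3K27ac peaks of this size. The first, chr3:34537714-34556921, ranked 322 with a score of 865.7, and the second, chr3:34648757-34671211, ranked 217 with a score of 1040.3. Their centres were 113 kb apart. H3K4me1 formed a 47.1-kb peak over the second, chr3:34631128-34678229, which ranked 184 of 145840.

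After retinoic acid both windows lost H3K27ac. Occupancy is given as CPM, CpG counts for each 1000000 CpG counts of the library. The Pou5f1 window fell from 118 to 29.3 CPM, a log2 ratio of -2.01 (exact Poisson interval -2.12 to -1.91) or 4.03-fold lower. The Sox2 window fell from 519 to 66.6 CPM, a log2 ratio of -2.96 (-3.03 to -2.90) or 7.79-fold lower. H3K4me1 fell less, from 58.3 to 45.0 CPM at Pou5f1 (1.30-fold lower, log2 -0.37, -0.45 to -0.30) and from 416 to 151 CPM at Sox2 (2.75-fold lower, log2 -1.46, -1.5 to -1.42). In bulk chromatin, fewer cells with a mark and less of the mark per cell cannot be told apart.

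The peaks of ESCs give the background for these falls. With H3K27ac, 2 of 2 peaks at Pou5f1 and 23 of 23 at Sox2 had more than 2-fold lower counts in RA, where 37.2% of all 88499 ESC peaks with at least 30 counts in the 2 libraries together did. The median log2 ratio was -1.81 at Pou5f1 and -2.58 at Sox2, and -0.58 over all ESC peaks. With H3K4me1, 1 of 3 peaks at Pou5f1 and 13 of 16 at Sox2 were more than 2-fold lower, against 47.6% of 139838 peaks, with median log2 ratios of -0.65, -2.16 and -0.90. At Sox2 the ESC peak chr3:34550650-34551900 went the other way, with 174 counts in ESCs and 510 in RA, 3.65-fold more relative to the library total (log2 1.87, 1.62 to 2.13), and its 5mC was 0.57% and 10.8%. A peak called in ESCs was chosen for being high there, for members and background alike. Counts were taken over whole peaks, also where a peak reached past the window, as the H3K27ac peaks at Pou5f1 did. The Pou5f1 H3K4me1 peak that was more than 2-fold lower, chr17:35654184-35660383 (2.30-fold), lies mostly past the window's end. H3K4me1 in the last 5 kb of the window itself was 1.15-fold lower.

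The loss of H3K27ac was uneven along the windows. At Pou5f1, in tiles of 5 kb, it fell in 6 of 6 tiles, most in the first (8.14-fold) and least in the last (1.82-fold). The fourth tile, 15 to 20 kb from the window start, held the most H3K27ac in ESCs, at 46.6 CPM, and fell to 6.22. H3K4me1 moved the other way there, from 6.90 to 14.7 CPM (log2 1.09, 0.91 to 1.27), the only tile of either window with more H3K4me1 CPM in RA. The second tile had few counts and the largest fall of H3K4me1, from 260 counts to 8 (26.1-fold). Of the 2 RA peaks of H3K4me1 that overlap the fourth tile, the one at chr17:35643083-35647181 held 280 counts in ESCs and 661 in RA, 2.94-fold more relative to the library total. The other, chr17:35637039-35642088, held 755 and 545 counts, a log2 ratio of -0.15 (-0.31 to 0.01). Both were called in RA, which favours peaks that are high there.

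At Sox2, in tiles of 10 kb, H3K27ac fell in 15 of 15 tiles, each by more than 2-fold. The tile at 10 to 20 kb held 132 CPM in ESCs, the highest of either window, and fell 12.1-fold to 10.9. The distal tile at 120 to 130 kb held 70.1 CPM and fell 9.93-fold to 7.06. H3K4me1 fell in 15 of 15 tiles, by 1.28-fold at 20 to 30 kb and 1.31-fold at 110 to 120 kb, the smallest falls, the first in the tile that holds the peak that rose, and by 10.4-fold at 130 to 140 kb, the largest. The H3K4me1 that remained in RA lay mainly at 10 to 40 kb (81.1 of the window's 151 CPM) and at 110 to 130 kb (34.6 CPM), the distal stretch. These stretches were picked after the values were seen.

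**Figure D1:**
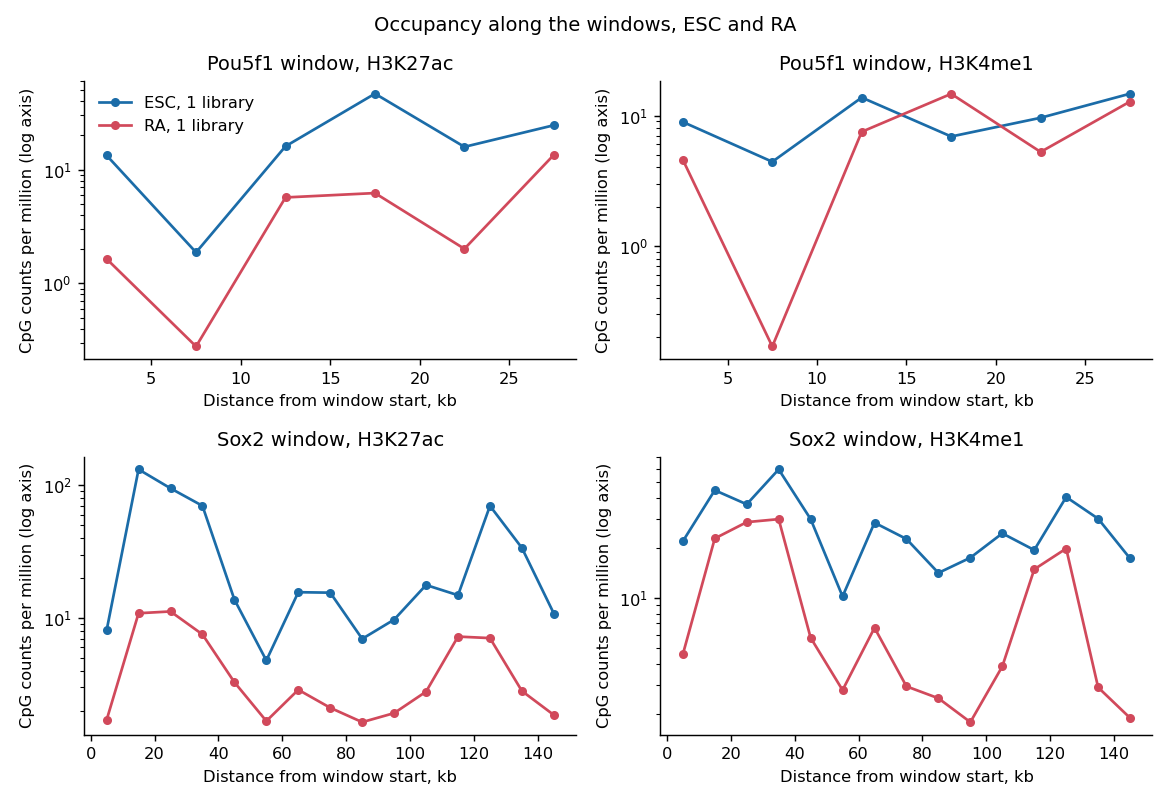
CPM (CpG counts for each 1000000 of the library, log axis) against the distance from the window start in kb, in 5-kb tiles at Pou5f1 and 10-kb tiles at Sox2, for H3K27ac and H3K4me1. Points are 1 library each in ESC (blue) and RA (red). H3K27ac was lower in RA in every tile, and H3K4me1 was higher in RA only in the Pou5f1 tile at 15 to 20 kb.

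Few large peaks were left in RA. H3K27ac peaks covered 38.8% of the Pou5f1 window and 10.4% of the Sox2 window, and their highest scores were 97.9 (rank 12229 of 102600) and 37.1 (rank 30156). H3K4me1 peaks covered 54.1% and 29.1%, with highest scores of 107.4 (rank 15006 of 158989) and 114.4 (rank 13692). HOMER scores were compared only within a list. The highest RA H3K27ac peak at Pou5f1, chr17:35621432-35625418, lay mostly before the window's start. The highest RA H3K27ac peak that overlaps the Sox2 window lay in the distal stretch, at chr3:34645462-34648174, before the start of the highest ESC peak.

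Next, 5mC was compared between ESCs and RA. At Pou5f1 it rose from 5.45% to 21.8% on H3K27ac (19.2 to 24.6, 948 counts), a change of 16.4 percentage points (Newcombe interval 13.8 to 19.2), and from 12.6% to 35.2% on H3K4me1 (33.2 to 37.3, 2122 counts), a change of 22.6 points (20.3 to 24.9). At Sox2 it rose from 9.47% to 34.6% on H3K27ac (32.6 to 36.7, 2150 counts), a change of 25.1 points (23.1 to 27.2), and from 24.9% to 34.6% on H3K4me1 (33.5 to 35.7, 7133 counts), a change of 9.76 points (8.54 to 11). Whole libraries changed by 5.71 points for H3K27ac and 16.2 points for H3K4me1. The window values pool counts in and out of peaks, and in RA H3K27ac peaks covered 10.4% of the Sox2 window. These intervals hold no error between replicates, since 1 file per mark and state was used, and whether it pools repeats of the experiment is not known.

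Pooled changes depend on which bins carry the counts. When the difference was taken within each bin listed in both libraries and then averaged, H3K4me1 rose by 31.0 points over 106 bins at Pou5f1 and by 22.9 points over 471 bins at Sox2, and H3K27ac by 21.7 points over 93 bins and by 16.4 points over 393 bins. By this measure the change at Sox2 was larger on H3K4me1 than on H3K27ac, the reverse of the pooled order. No minimum of counts was set for these bins, and a bin can be listed with 1 count. In the bins with at least 30 counts in both libraries alone, the pooled change was 25.5 points on H3K4me1 and 6.06 on H3K27ac at Pou5f1, and 17.0 and 4.27 points at Sox2.

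The methylated and the unmethylated counts moved separately. On H3K27ac at Pou5f1, methylated counts were 6.44 CPM in ESCs and 6.41 in RA, and unmethylated counts fell from 112 to 22.9. On H3K4me1 at Pou5f1, methylated counts were higher in RA, at 15.8 against 7.36 CPM, and unmethylated counts lower, at 29.1 against 50.9. At Sox2 both were lower in RA. Methylated counts went from 49.1 to 23.0 CPM on H3K27ac and from 103 to 52.3 on H3K4me1, and unmethylated counts from 470 to 43.5 and from 313 to 98.9.

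Bins with at least 30 CpG counts in both libraries and an overlap with a peak were tested one by one, with Fisher's exact test and Benjamini-Hochberg adjustment over all such bins of the genome. This test compares 2 libraries. On H3K4me1, 5mC was higher in RA at an adjusted p under 0.05 in 12 of 16 bins at Pou5f1 and in 34 of 54 at Sox2, against 47.8% of all 204685 bins tested, and it was lower in none of either window, against 1.84%. The median difference was 38.0 points at Pou5f1 and 17.7 at Sox2, beside 17.4 over all bins tested. Of 15 Pou5f1 bins that were under 20% in ESCs, 10 were at 20% or more in RA, and of 44 such Sox2 bins 23 were, against 56.9% of such bins over the genome.

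On H3K27ac only 9 bins of each window kept 30 counts in RA. 5mC was called higher in RA, at an adjusted p under 0.05, in 3 of 9 bins at Pou5f1 and in 1 of 9 at Sox2, against 13.8% of all 81132 bins tested, and called lower in none, against 1.06%. The median difference was 3.23 points at Pou5f1, 2.00 at Sox2 and 0.72 over all bins tested. Of the 9 bins at each gene, 8 were under 20% in both states, as were 83.0% of all bins tested. Bins in which H3K27ac had gone by RA could not enter this test.

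**Figure D2:**
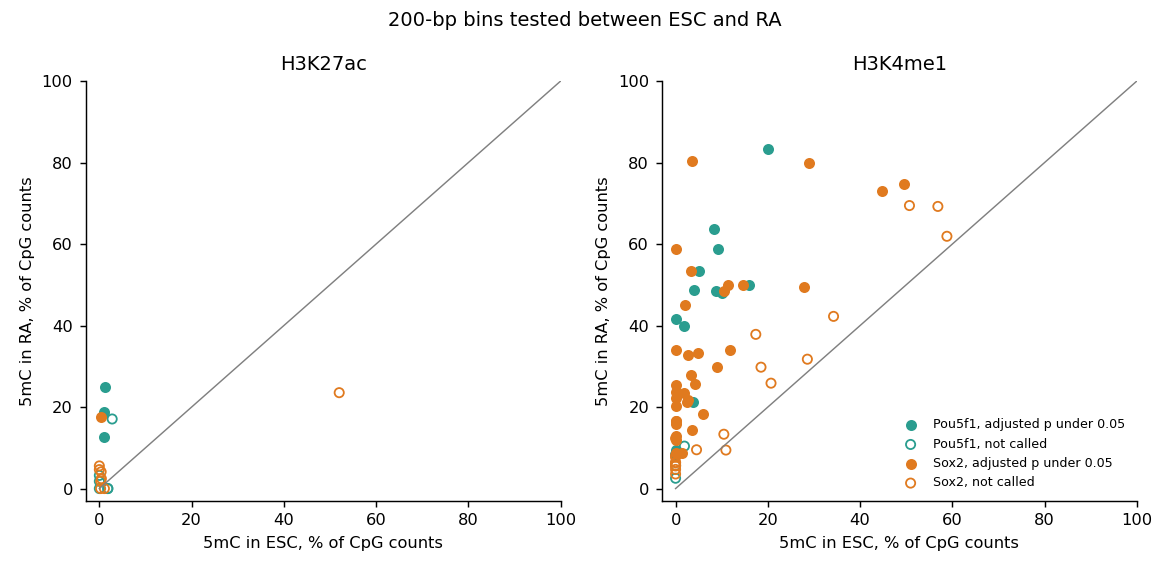
5mC (% of CpG counts) of each 200-bp bin tested in ESCs (x axis) and RA (y axis), on H3K27ac (9 bins per window) and H3K4me1 (16 bins at Pou5f1, 54 at Sox2). Filled points have an adjusted p under 0.05 and the grey line marks equal values. On H3K4me1 most bins lie above the line and on H3K27ac most lie near 0 in both states.

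The largest called rises at Pou5f1 lay in 3 separate places. At chr17:35625201-35625400, 0.2 kb from the window start, H3K4me1 5mC rose from 14 of 70 counts (20.0%) to 25 of 30 (83.3%), with an adjusted p by Fisher's exact test of 5.46e-08. At chr17:35638601-35638800 it rose from 4 of 48 (8.33%) to 21 of 33 (63.6%, adjusted p by Fisher's exact test 1.98e-06), and at chr17:35627201-35627400 from 7 of 76 (9.21%) to 20 of 34 (58.8%, adjusted p 9.79e-07). On H3K27ac the same 3 bins had 4, 13 and 4 counts left in RA.

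Of the called H3K27ac bins at Pou5f1, 2 lay in the last kb of the window. At chr17:35654601-35654800 5mC rose from 1 of 79 (1.27%) to 9 of 36 (25.0%, adjusted p by Fisher's exact test 0.00126), and at chr17:35654401-35654600 from 1 of 106 to 6 of 47 (adjusted p 0.0268). At chr17:35644001-35644200 it rose from 1 of 100 (1.00%) to 6 of 32 (18.8%, adjusted p by Fisher's exact test 0.00744). Beside them, chr17:35654001-35654200, the bin with the most RA H3K27ac counts at Pou5f1, held 1 methylated count of 54 in ESCs and 0 of 97 in RA (0 to 3.73%), so rises and low values lay side by side at the downstream end of the window.

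At Sox2 the 3 largest called rises on H3K4me1 lay in the distal stretch at 110 to 130 kb. At chr3:34655001-34655200, 125 kb from the window start, 5mC rose from 3 of 84 counts (3.57%) to 37 of 46 (80.4%, adjusted p by Fisher's exact test 7.13e-18). On H3K27ac the same bin had 5 of 138 methylated in ESCs (3.62%) and 12 of 15 in RA (51.9 to 95.7%). The adjoining bin, chr3:34655201-34655400, rose from 0 of 39 (0 to 9.03%) to 20 of 34 (58.8%, adjusted p by Fisher's exact test 5.51e-08), and chr3:34646601-34646800 from 30 of 104 (28.8%) to 48 of 60 (adjusted p 5.47e-09). The called H3K27ac bin was at the other end of the window, chr3:34550401-34550600, with 1 of 261 (0.38%) in ESCs and 6 of 34 (17.6%) in RA (adjusted p by Fisher's exact test 0.000163).

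The stretch at 10 to 40 kb of the Sox2 window (chr3:34540001-34570000) and the distal stretch at 110 to 130 kb (chr3:34640001-34660000) differed in level. On H3K4me1 5mC went from 12.9% (12.2 to 13.6) to 18.8% (17.6 to 20.1) in the first and from 21.5% (20.1 to 22.9) to 49.9% (47.4 to 52.3) in the second. On H3K27ac it went from 2.48% (2.18 to 2.81) to 9.62% (7.83 to 11.7), and from 9.50% (8.44 to 10.7) to 45.5% (40.8 to 50.1). Of the H3K4me1 bins tested, 30 of 30 in the first stretch were under 20% in ESCs and 19 still were in RA. In the second 10 of 19 were and 2 still were. Of all 204685 bins tested over the genome, 102983 were under 20% in ESCs and 44413 were so in both states. Both stretches had lost most of their H3K27ac counts. The stretches were chosen on these values and no test was made between them.

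**Figure D3:**
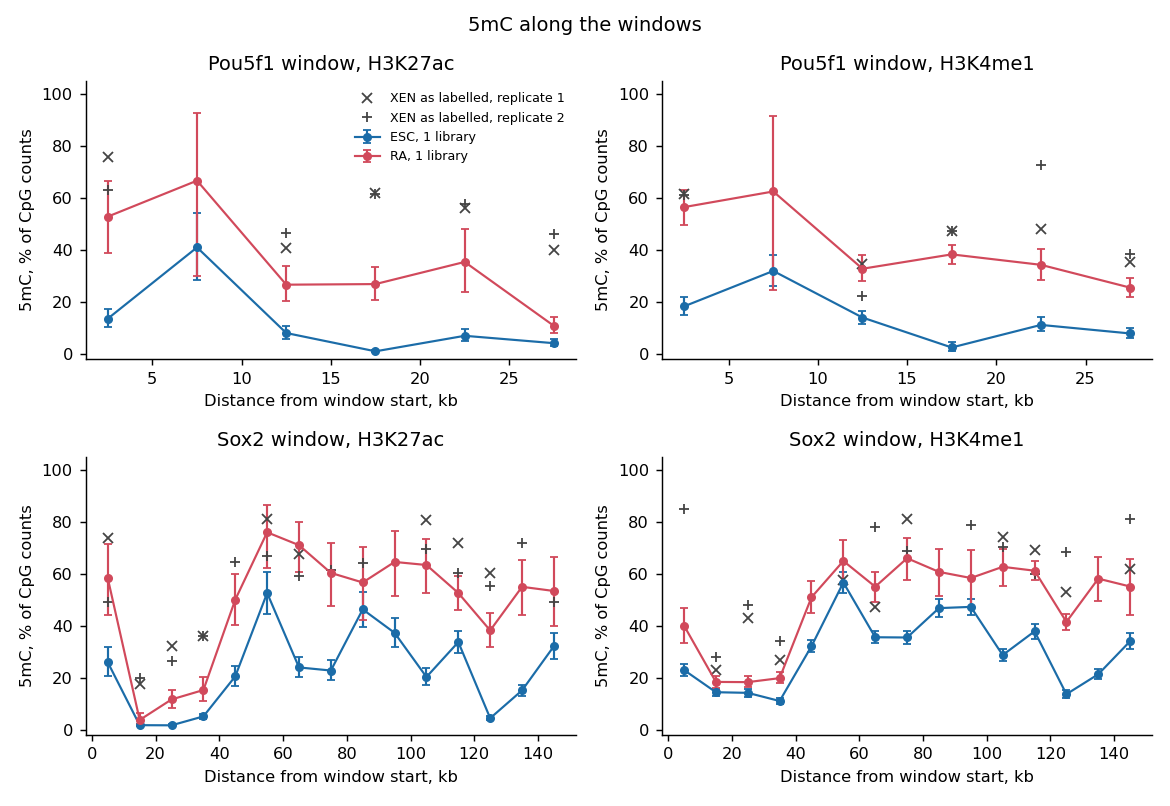
5mC (% of CpG counts) against the distance from the window start in kb, for 5-kb tiles at Pou5f1 and 10-kb tiles at Sox2. Lines are ESC (blue) and RA (red) with exact 95% intervals of counting error, and crosses are the 2 XEN replicates labelled with that mark, for tiles with at least 20 counts. RA lies above ESC in every tile. The Sox2 tiles at 10 to 40 kb are the lowest of that window in RA and among the XEN tiles shown. In ESC the tile at 120 to 130 kb is about as low on H3K4me1. On H3K27ac it is at 4.38% in ESC, above the tiles at 10 to 20 kb (1.70%) and 20 to 30 kb (1.65%).

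The bin with the most H3K27ac counts of each window shows the contrast in single positions. At Pou5f1 this bin, chr17:35643201-35643400, had 0 methylated of 192 counts in ESCs (0 to 1.90%), 5 of 27 in RA (18.5%, 6.30 to 38.1) and, in the XEN libraries labelled H3K27ac, 40 of 58 (69.0%) and 84 of 109 (77.1%). On H3K4me1 it had 0 of 5 in ESCs and 19 of 33 in RA (57.6%, 39.2 to 74.5). At Sox2 the bin chr3:34549601-34549800 had 2 of 510 in ESCs (0.39%, 0.05 to 1.41), 3 of 73 in RA (4.11%, 0.86 to 11.5), and 0 of 39 and 1 of 50 in the XEN libraries labelled H3K27ac. On H3K4me1 it was not listed in ESCs and had 1 of 48 in RA (2.08%, 0.05 to 11.1). The Pou5f1 bin was thus unmethylated only in ESCs, and the Sox2 bin stayed under 5% in each library that listed it.

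The marks were then compared with each other. Pooled windows take the bins of each library, and the values within bins take only the bins listed under both marks. In the pooled windows 5mC was higher on H3K4me1 than on H3K27ac, by 7.18 points at Pou5f1 (5.87 to 8.52) and 15.4 points at Sox2 (14.7 to 16.1) in ESCs, and by 13.4 points at Pou5f1 in RA (9.97 to 16.6). At Sox2 in RA the difference was 0.01 points (-2.30 to 2.28). Taken within bins, these differences were 0.86 and 1.84 points in ESCs, over 119 and 553 bins, and 1.45 and 5.16 points in RA, over 88 and 349 bins.

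Single bins were then tested between the marks, and in ESCs the members' counts were near the share over all bins. In ESCs no bin was called by Fisher's exact test at Pou5f1 (0 of 26, 1 at an unadjusted p under 0.05) or Sox2 (0 of 117, 2 unadjusted), where 0.0692% of the 92470 bins tested were called higher on H3K4me1 and 0.00973% higher on H3K27ac. A difference of over 20 points was seen in 1 bin, at Sox2, and was 1.36% of all bins in that direction and 1.03% in the other. This bin, chr3:34663201-34663400, had 25 of 53 methylated on H3K4me1 and 10 of 44 on H3K27ac (adjusted p by Fisher's exact test 0.743). At Pou5f1 the largest difference was 12.1 points, at chr17:35651601-35651800.

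In RA only 6 bins at Pou5f1 and 7 at Sox2 could be compared. None was called at Pou5f1 (0 at an unadjusted p under 0.05 as well), where the largest difference was -7.61 points. At Sox2 1 bin was called and was also the only bin past 20 points, with 5mC higher on H3K4me1. Among all 95406 bins 0.801% were called higher on H3K4me1 and 0.0126% higher on H3K27ac, and 4.64% and 0.604% were past 20 points. This bin, chr3:34647001-34647200, in the distal stretch, had 113 of 155 methylated on H3K4me1 in RA (72.9%, 65.2 to 79.7) and 8 of 34 on H3K27ac (23.5%, 10.8 to 41.2), an adjusted p by Fisher's exact test of 0.000296.

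In ESCs the marks had been near each other in that bin, with 59 of 132 (44.7%) on H3K4me1 and 26 of 50 (52.0%) on H3K27ac. H3K4me1 rose by 28.2 points to RA (adjusted p by Fisher's exact test 1.01e-05), and H3K27ac went down by 28.5 points, which did not pass the adjustment (0.0778). It was the only H3K27ac bin above 20% in ESCs among the 9 of each window tested between ESCs and RA. With 1 library per mark, the size of this difference has no replicate check.

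In XEN cells, which had replicates, 5mC in the libraries labelled H3K27ac was 54.6% and 56.1% over the Pou5f1 window (55.4% ± 1.04, SD, n = 2) and 44.9% and 40.6% over the Sox2 window (42.7% ± 3.04). In those labelled H3K4me1 it was 45.0% and 47.4% at Pou5f1 (46.2% ± 1.68) and 55.0% and 62.9% at Sox2 (58.9% ± 5.59). Over the pooled windows the order of the labels was opposite at the 2 genes, by -9.19 points (H3K4me1 minus H3K27ac) at Pou5f1 and 16.2 points at Sox2, without overlap between the replicates. If the file names held instead of the labels, both signs would turn. Over whole libraries H3K4me1 was the more methylated mark in ESCs and RA, and under the labels H3K27ac was in XEN. In the bins richest in H3K27ac in ESCs, XEN counts were higher under the H3K27ac label, whose libraries were also the deeper. The Sox2 bin chr3:34549601-34549800 held 510 H3K27ac counts and none on H3K4me1 in ESCs, and in XEN 39 and 50 counts under the H3K27ac label and was not listed under the H3K4me1 label. The Pou5f1 bin chr17:35643201-35643400 held 192 and 5 counts in ESCs, and in XEN 58 and 109 under the H3K27ac label against 11 and 13 under the H3K4me1 label. With 2 libraries against 2, the two-sided exact permutation test cannot go below p = 0.333, the value found in both windows. Counts lay in different places under the 2 labels. The stretch at 10 to 40 kb of the Sox2 window, the lowest in 5mC, held 1227 of 2114 and 1684 of 2887 counts under the H3K27ac label, and 110 of 453 and 179 of 641 under the H3K4me1 label.

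The libraries labelled H3K27ac held more counts in both windows. They had 83.7 and 74.6 CPM at Pou5f1, against 28.7 and 26.5 in those labelled H3K4me1, and 92.9 and 92.1 at Sox2, against 37.3 and 40.8. The windows held 349 to 2887 counts per library, and no bin of either window reached 30 or 20 counts in all 4 libraries. The marks were therefore compared in 10-kb tiles, a choice made after the counts were seen.

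Of the 8 member tiles with at least 30 counts in all 4 XEN libraries, 1 was called by edgeR's quasi-likelihood test. It was the tile of chr17:35635001-35645000 at Pou5f1, with methylation of 42.3% under the H3K4me1 label and 57.4% under the H3K27ac label (means of 2, log2 odds ratio -0.88, edgeR adjusted p 0.00188). Without replicate 2 of the libraries labelled H3K27ac this call was lost, at an edgeR adjusted p of 0.0767, with a log2 odds ratio of -0.83. Over all 59566 tiles 20.4% were called higher under the H3K27ac label and 1.51% higher under the H3K4me1 label, so the direction of this tile was the common one. None of the 5 tiles tested at Sox2 was called by edgeR (0 at an unadjusted p under 0.05), with log2 odds ratios from -0.32 to 0.21, and 3 of the 5 were negative, that is lower under the H3K4me1 label, unlike the pooled window. The 3 Sox2 tiles at 10 to 40 kb had 110 and 179 counts in all in the libraries labelled H3K4me1, and only the last of them was tested. At a minimum of 20 counts in all 4 libraries the tile chr3:34550001-34560000 was tested as well and was not called (log2 odds ratio 1.08, edgeR adjusted p 0.052). Without replicate 1 of that label it was called (log2 odds ratio 1.17, edgeR adjusted p 0.0294), in a fit where the lone library of that label is assumed to vary like the other label's.

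Along the Sox2 window, XEN cells had the same order of stretches as RA. At 10 to 40 kb 5mC was 28.3% and 27.4% in the libraries labelled H3K27ac and 33 of 110 counts and 39.1% in those labelled H3K4me1, and at 110 to 130 kb it was 64.5%, 56.9%, 61.4% and 64.7%. The first stretch was lower in 4 of 4 libraries. At Pou5f1 no tile of XEN cells was under 20%, and the fourth tile, 15 to 20 kb from the start, which held more H3K27ac counts than any other tile in ESCs, was at 62.0% and 61.4% in the libraries labelled H3K27ac and 47.4% in each of those labelled H3K4me1.

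**Figure D4:**
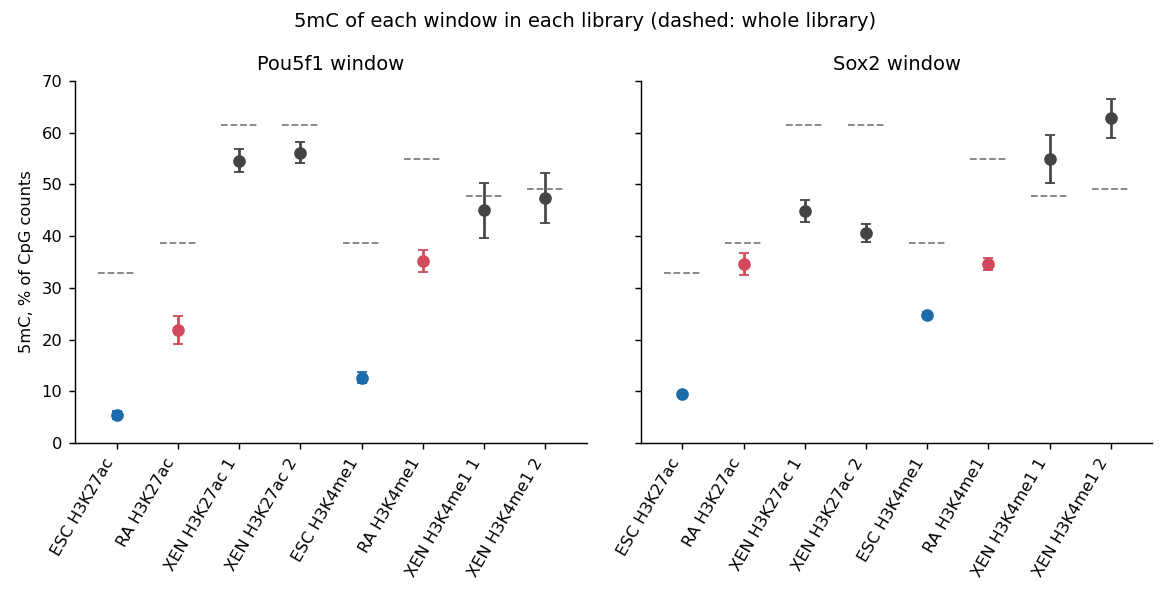
5mC (% of CpG counts) of the Pou5f1 and the Sox2 window in each of the 8 libraries, XEN libraries by label and replicate. Points are the pooled value with the exact 95% interval of counting error, and dashed lines give the level of the whole library. Both windows lie below their library in ESC and RA, and in XEN the libraries labelled H3K4me1 lie above it at Sox2.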

How the data were processed

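ChIP-BS-seq bin files of 8 libraries (ESC and RA, 1 per mark, and XEN, 2 per mark) and peak lists of ESC and RA were used. The authors aligned reads to mm9 with Bismark and Bowtie (Bowtie2 is also named for XEN), and they removed reads with mixed CpG states. What the authors deposited per 200-bp bin are unscaled counts of CpGs read as methylated or as unmethylated. The column that is rare on the mitochondrial genome was taken as methylated (column 4 in ESC and RA, 5 in XEN). The deposited peak lists hold a HOMER score per peak, used for ranks within a list. Versions were not given in the sources used here, nor whether an ESC or RA file pools repeats.

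5mC was methylated over all CpG counts. Occupancy was CPM, CpG counts scaled to the library total. Bins tested one by one needed at least 30 counts in each library compared, and a 1-bp overlap with a peak (of either state, or of both marks). Averages within bins used every bin listed in both libraries, without a minimum of counts. Bins were compared by Fisher's exact test, adjusted over the genome after Benjamini and Hochberg, peaks by a 2-fold difference, and XEN tiles by edgeR 4.0.16 (quasi-likelihood, methylated against unmethylated counts, R 4.3.3). Shares have Clopper-Pearson, differences Newcombe and count ratios exact Poisson intervals, all 95%. Tests were tried on simulated data (scipy 1.17.1, numba 0.67.0). Depth ran from 12147115 to 58803653 CpG counts per library.

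Named bins were, per window and mark, the 3 largest rises and falls among called bins, the bins past 20 points between marks that were called (or else the largest difference), and the bins with the most counts in a library, together with the highest peaks. The members and lists were chosen with earlier results of these data known. Single-cell RNA-seq was not used here, since its transcript identifiers were not paired with gene symbols. Input and H3K36me libraries are not analysed here.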

Additional observations from a re-analysis of the deposited data

How the results depend on the processing

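Direction was kept by every 5mC change and occupancy ratio of the windows under the alternatives run. With bins of at least 30 counts in both libraries, the 5mC change from ESC to RA was 25.5 (H3K4me1) and 6.06 points (H3K27ac) at Pou5f1 and 17.0 and 4.27 points at Sox2, and within bins (chosen after seeing the data) 31.0, 21.7, 22.9 and 16.4 points in that order. In peaks alone, Sox2 H3K27ac changed by 23.0 points and its log2 occupancy by -3.06. Bins called higher in RA moved, at a minimum of 20 counts, to 23 of 33 (H3K4me1, 39.8% of all bins) and 6 of 14 (H3K27ac, 17.5%) at Pou5f1. At a minimum of 60 they moved to 3 of 4 at Pou5f1 and 13 of 18 at Sox2 (H3K4me1, 61.0% of all bins) and to 0 of 1 in each window (H3K27ac, 7.36%), so that fewer bins were tested. Between marks, the Sox2 bin past 20 points in ESCs was lost past 30 points (0) and with Fisher's exact test (0), and the RA calls at Sox2 went from 1 of 7 to 2 of 13 at a minimum of 20 (0.417% of all bins). In RA a minimum of 60 left no bin to compare between marks.

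In XEN, leaving out each library gave differences between labels of -10.4 to -8.00 points at Pou5f1 and 12.2 to 20.1 at Sox2. XEN libraries of equal replicate number shared no deviation that could be seen (correlation of deviations -0.0065 over 59566 tiles). This does not settle whether they came from the same culture. With the replicate block the window differences of -9.19 and 16.2 points could not move, since each label holds 1 library of each number. Within replicate numbers 1 and 2 they were -9.64 and -8.74 points at Pou5f1, and 10.1 and 22.3 points at Sox2. Tile calls with the block stayed at 1 and 0. Tiles called without 1 library ranged from 0 to 1 at Pou5f1 (higher under H3K27ac), with 0 of 3 without H3K27ac replicate 2 (9392 of all 59748 tiles), and from 0 to 1 at Sox2 (higher under H3K4me1), with 1 of 7 without H3K4me1 replicate 1 (1435 of all 73272 tiles). The test per bin in XEN was not run, since no member bin had the counts, nor were the single-cell alternatives. The cause of the other moves was not tested.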
